A study of Mus musculus with 6 samples.

Results

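The genes Aqp1, Syt13, Fam84a, Bmx and Wfdc1 are described here, 5 genes measured in 6 RNA-seq libraries of mouse endothelial cells, out of 24421 genes in the count table. They were chosen by their read counts, which were far lower in blood endothelial cells (BECs) that overexpress the histone methyltransferase gene Dot1l than in control BECs. The values of that pair are therefore given below as a description. The other 4 libraries, a pair of lymphatic endothelial cells (LECs) and a pair of BECs from embryonic skin, were not used in the choice.

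The cultured BECs were a line from mouse embryonic yolk sac and the cultured LECs were cells from mouse embryonic dermis. OE-BECs and OE-LECs had received a lentivirus that carries EGFP and a deactivated Cas9 fused to the activator VP64, with guides to the Dot1l promoter. Cont BECs and Cont LECs had received the empty lentivirus, so both arms were transduced and sorted for EGFP. Fresh BECs came from the skin of embryos at E15.5, sorted as positive for CD31 and negative for macrophage markers and for Lyve1. The skin library labelled Dot1l knockout (cKO) came from embryos with Tie2-Cre and floxed Dot1l alleles, and the skin Cont library from littermates with the same floxed alleles and no Cre. Tie2-Cre acts in endothelial cells and also in blood cells. Each condition has 1 library, made from pooled embryos or pooled flasks. No difference could therefore be set against a spread between replicates, no p-value is given, and each comparison describes those 2 libraries.

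The 5 genes have different jobs. Aqp1 encodes aquaporin 1, a water channel of the plasma membrane that is abundant in red blood cells, kidney tubules and capillary endothelium. Syt13 encodes synaptotagmin 13, an unusual member of a family of membrane proteins in vesicle traffic whose better known members sense calcium. Fam84a, also called Lratd1, encodes a protein with a domain related to that of lecithin retinol acyltransferase, and little is known of its role in endothelium. Bmx encodes a non-receptor tyrosine kinase of the Tec family, which is recruited to membranes by the lipid product of PI3 kinase and is known as a marker of arterial endothelium and endocardium. Wfdc1 encodes a small secreted protein with a whey acidic protein domain, the fold of several protease inhibitors. Dot1l itself methylates lysine on the core of histone H3, a mark found over transcribed genes.

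RefSeq promoter sequences were found for 3 of the 5 genes. They are shown because the 5 genes moved together in 1 pair of libraries, so that their start regions can be compared by eye. Each is the 250 bases before the RefSeq start on build GRCm38.p6, read in the direction of the gene. Capitals mark GGAA on either strand, the core letters bound by ETS factors, a family with many endothelial members.
Aqp1, chr6:55336049-55336298, plus strand: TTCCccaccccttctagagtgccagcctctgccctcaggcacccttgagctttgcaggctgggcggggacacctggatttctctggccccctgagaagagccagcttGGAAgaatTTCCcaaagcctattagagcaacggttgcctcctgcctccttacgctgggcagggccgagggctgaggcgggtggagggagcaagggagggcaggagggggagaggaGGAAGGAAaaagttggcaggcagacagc
Fam84a, chr12:14152039-14152288, minus strand: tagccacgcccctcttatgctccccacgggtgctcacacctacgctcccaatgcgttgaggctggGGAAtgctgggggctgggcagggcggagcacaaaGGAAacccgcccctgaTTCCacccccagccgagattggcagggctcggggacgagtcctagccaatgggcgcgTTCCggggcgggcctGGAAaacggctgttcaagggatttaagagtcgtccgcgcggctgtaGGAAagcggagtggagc
Bmx, chrX:164258194-164258443, minus strand: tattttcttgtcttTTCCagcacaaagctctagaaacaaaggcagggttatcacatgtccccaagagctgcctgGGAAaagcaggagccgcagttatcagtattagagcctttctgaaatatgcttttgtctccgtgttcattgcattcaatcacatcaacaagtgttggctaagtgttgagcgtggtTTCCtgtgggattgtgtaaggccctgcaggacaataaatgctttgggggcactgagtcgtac

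The GGAA core occurred 5 times in the Aqp1 stretch, 6 times in that of Fam84a and 3 times in that of Bmx. Of 32851 promoter windows of the same length, 93.4% hold it, so its presence does not set these genes apart. The Fam84a stretch had 19 CpG dinucleotides and 64.8% G and C, the Aqp1 stretch 5 CpG and 62% G and C, and the Bmx stretch 4 CpG and 45.6% G and C, beside a median of 6 CpG over all windows. Another 4 motifs were searched on both strands. GATAA, held by 22.6% of windows, occurred 2 times before Bmx and not before the others. CANNTG, held by 66.2%, occurred 2 times before Bmx, 1 time before Aqp1 and not before Fam84a. CACCC, held by 52.0%, occurred 3 times before Aqp1, 2 times before Fam84a and not before Bmx. TATAAA, held by 12.4%, was in none of the 3 stretches. Matches of different motifs shared 1 base in the Fam84a stretch (GGAA with CACCC) and 1 base in the Bmx stretch (GATAA with CANNTG). A match is a run of letters and not a measured binding site.

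The genes lie on 5 chromosomes of mm10 in the GENCODE M21 annotation. Aqp1 (ENSMUSG00000004655.5) is on chromosome 6 from 55336432 to 55348555 on the plus strand. Syt13 (ENSMUSG00000027220.2) is on chromosome 2 from 92915098 to 92956058 on the plus strand. Fam84a (ENSMUSG00000020607.7) is on chromosome 12 from 14146830 to 14152054 on the minus strand. Bmx (ENSMUSG00000031377.11), with the most merged exons of the 5 (20), is on chromosome X from 164192842 to 164258193 on the minus strand. Wfdc1 (ENSMUSG00000023336.6) is on chromosome 8 from 119666365 to 119688222 on the plus strand. No exon of these genes overlaps an exon of another annotated gene. The span of Wfdc1 overlaps that of Gm32352 on the other strand, outside the exons of Wfdc1.

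The libraries held between 8863349 and 31032461 counted reads (Cont BECs 17685615, OE-BECs 13933651). The ribosomal RNA gene Rn45s took 5.91% of reads in Cont BECs, 10.9% in OE-BECs and under 1% elsewhere, at most 0.570%. Dot1l was 2.78-fold up in OE-BECs (1972 and 4208 reads) and 2.30-fold higher in OE-LECs (2490 and 6720 reads). Skin Cont had 762 Dot1l reads and the skin library labelled cKO 944 (log2 ratio -0.07, interval -0.21 to 0.07), and counts over the whole gene do not separate the floxed part from the rest. The paper reports its own check of the knockout by RT-qPCR of Dot1l, without replicates. All 14 blood endothelial markers had reads in every library. Of 8 lymphatic markers, Prox1, the factor that defines lymphatic endothelium, had 0 reads in all 4 cultured libraries, LECs included, and 1304 and 883 in skin, while Ccl21a had 0 in all 6. Lyve1 had 52184 and 60898 reads in the LEC pair (1998 and 1962 CPM) and 604 CPM in Cont BECs, Flt4 and Sox18 had reads in every library, and Pdpn, Reln and Mmrn1 had at most 5 in any cultured library. Summed macrophage markers were between 34.3 and 94.7 CPM (reads per 1000000 reads of the library) in culture, with Adgre1 and the C1q genes at 0, and were 3921 in skin Cont and 6118 in skin labelled cKO.

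Levels are given as CPM, reads per 1000000 as above, with exact Poisson 95% intervals. Ratios are of counts normalized within each pair by the median of ratios, with exact Clopper-Pearson 95% intervals. These intervals hold counting error alone and treat each read as independent. PCR copies, counted without molecular identifiers, are not independent molecules, so the intervals may be too narrow even for counting error. In such bulk libraries, fewer cells that express a gene and less RNA per cell cannot be told apart.

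Aqp1 had the most reads of the 5 genes in the BEC and skin libraries, and Syt13 in the LEC libraries. It had 2232 and 60 reads in the BEC pair (Cont, then OE), 218 and 112 in the LEC pair, and 3651 and 3433 in the skin pair (Cont, then labelled cKO). As CPM these were 126, 4.31, 8.35, 3.61, 412 and 309.7 in the same order. Skin BECs were highest and both OE libraries lowest, and only the intervals of OE-BECs and OE-LECs overlapped. The highest level was 114.1 times the lowest. Counted over genes by reads, Aqp1 stood in place 325 in skin Cont BECs, 1768 in Cont BECs and 10073 in OE-BECs. It was 28.5-fold lower in OE-BECs than in Cont BECs (log2 ratio -4.83, interval -5.23 to -4.46). After this fall its level in OE-BECs was 1.94-fold below that of Cont LECs, whereas Cont BECs had been 15.1-fold above Cont LECs (interval 13.2 to 17.5).

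Syt13 was a gene of the cultured cells. It had 1187 and 41 reads in the BEC pair (Cont, then OE), 1865 and 764 in the LEC pair, and 9 and 12 in the skin pair (Cont, then labelled cKO), which are 67.1, 2.94, 71.4, 24.6, 1.02 and 1.08 CPM. The control lines lay close together, with intervals that overlapped and a log2 ratio of Cont BECs over Cont LECs of -0.09 (interval -0.20 to 0.02). Both lines were far above skin, Cont BECs by 66.1-fold over skin Cont (interval 34.7 to 144.9). Syt13 was 22.2-fold lower in OE-BECs (log2 ratio -4.47 with an interval of -4.96 to -4.02), which left it 24.3-fold below Cont LECs.

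Fam84a lost all its reads. It had 133 and 0 reads in the BEC pair (Cont, then OE), 32 and 14 in the LEC pair, and 24 and 67 in the skin pair (Cont, then labelled cKO). The levels were 7.52 CPM in Cont BECs, 1.23 and 0.451 in the LEC pair and 2.71 and 6.04 in the skin pair. The count of 0 in OE-BECs allows up to 0.265 CPM by its interval. With a floor of 3 reads in place of this count, the gene was 34.0-fold lower in OE-BECs. That value is not a lower limit of the fall, since the counting interval of the log2 ratio reaches up to -4.77, a smaller fall. Cont BECs and the skin library labelled cKO were the high libraries, with intervals that overlapped.

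Bmx was higher in skin than in culture. It had 123 and 2 reads in the BEC pair (Cont, then OE), 20 and 12 in the LEC pair, and 116 and 177 in the skin pair (Cont, then labelled cKO), or 6.95, 0.144, 0.766, 0.387, 13.1 and 16.0 CPM. The pair of skin libraries overlapped at the top, and OE-BECs, OE-LECs and Cont LECs lay at the bottom, each overlapping its neighbour. In OE-BECs the gene was 47.2-fold lower, and the 2 reads leave this ratio wide (interval 12.8 to 393.8). Cont BECs exceeded Cont LECs 9.08-fold (interval 5.63 to 15.4).

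Wfdc1 was a gene of the Cont BEC library. It had 126 reads there, 3 in OE-BECs, 5 in Cont LECs, 3 in OE-LECs, 4 in skin Cont BECs and 5 in the skin library labelled cKO. Cont BECs stood at 7.12 CPM and the other 5 libraries between 0.0967 and 0.451 CPM, and each of these overlapped the next. The ratio in OE-BECs was 32.2-fold lower (interval 10.8 to 158), and Cont BECs were 37.2-fold above Cont LECs (interval on the log2 scale 3.96 to 6.87). OE-BECs and Cont LECs could not be separated at this depth (log2 ratio 0.17, interval -2.52 to 2.53).

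**Figure D1:**
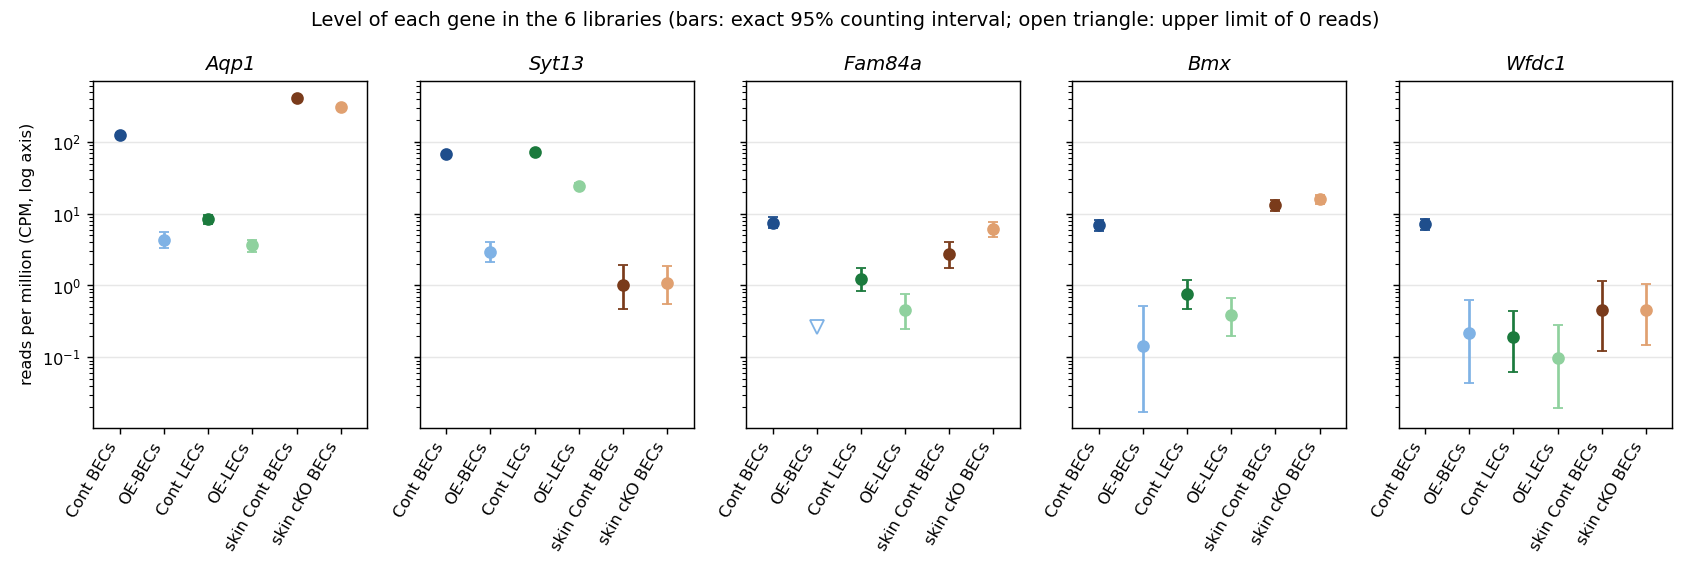
Level of each gene in CPM (log axis) in the 6 libraries, with exact 95% counting intervals and 1 library a condition. The OE-BEC point lies far below the Cont BEC point in every panel, skin is highest for Aqp1 (412 CPM in Cont) and Bmx, and the open triangle for Fam84a is the upper limit of 0 reads.

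Per kilobase of merged exons, the order in Cont BECs was Aqp1 with 48.0 CPM per kb, Syt13 with 17.8, Wfdc1 with 4.63, Bmx with 2.25 and Fam84a with 1.75. The control BEC line therefore had 2 well expressed genes and 3 of low level among the 5. In skin Cont BECs Aqp1 reached 156.8 CPM per kb and Bmx 4.23, and the other 3 genes stood at or under 0.629.

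The list was ordered against the whole table as follows. With 1 added to each normalized count, 9867 genes reached 100 normalized counts in 1 or both libraries of the BEC pair. Among these, the 5 genes were the first 5 in order of fall, Fam84a with a log2 ratio of -6.88, Bmx with -5.05, Aqp1 with -4.81, Wfdc1 with -4.65 and Syt13 with -4.44. The rank depends on that minimum, which Fam84a, Bmx and Wfdc1 only just reached (116.5, 107.7 and 110.3 normalized counts in Cont BECs). Among 13396 genes with at least 10 reads, 0.105% had a lower ratio than Syt13, some of them outside the set. Under the minimum of 100, just outside the 5 stood Igf2 (282 and 10 reads, -4.32), Cttnbp2 (357 and 13 reads, -4.31), Dkk2 (295 and 11 reads, -4.26), Abca1 (4912 and 209 reads, -4.17) and Fmo2 (135 and 5 reads, -4.15). The step from Syt13 to Igf2 is small, so the set of 5 is the head of a continuous order. A call by the study's rule needs a higher normalized count of at least 3 in the OE pairs, or 5 in skin, and more than 3 times the lower one. By it, 5.27% of the genes that could be called were lower in OE-BECs, and 5 of the 5 genes were, which the choice fixed.

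The blood endothelial markers also moved in this pair. They were lower in OE-BECs for 13 of 14 genes, with a median log2 ratio of -0.41, and their summed level went from 9442 to 5929 CPM. The part of this shift in the falls of the 5 genes was not tested.

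The LEC pair received the same vectors and was not used to choose the genes. In OE-LECs, Aqp1 was 2.28-fold lower than in Cont LECs (218 and 112 reads, log2 ratio -1.19, interval -1.53 to -0.86). Syt13 was 2.86-fold lower (1865 and 764 reads, log2 ratio -1.52, interval -1.64 to -1.40). Fam84a was 2.68-fold lower (32 and 14 reads, log2 ratio -1.42, interval -2.44 to -0.48). These 3 genes thus had counting intervals wholly below 0 in a second cell line, with a smaller factor than in OE-BECs. Bmx had a log2 ratio of -0.97 with an interval that includes 0 (-2.13 to 0.14). Wfdc1, with 5 and 3 reads, could not be measured.

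Among genes measured in the LEC pair (10 reads or more), 4 of the 4 genes measured had a log2 ratio below 0, where 49.1% of 13028 genes did. An interval wholly below 0 was found for 3 of 4, where 21.4% of genes had one. None passed the fold rule (0 of 5), which 2.09% of the genes that could be called did in the lower direction. Syt13 came nearest, and only 0.783% of the genes had a lower ratio than it. The shares were 1.07% for Fam84a, 1.63% for Aqp1 and 2.73% for Bmx. The median of the 4 was -1.27 with 1 added to the counts, beside 0.00 over all 13028 genes. Blood endothelial markers were lower for 12 of 14 genes in this pair, with a median of -0.27.

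The falls in the BEC and LEC lines were of different size. The log2 ratio in OE-BECs minus that in OE-LECs was -3.64 for Aqp1 (interval -4.16 to -3.13), -2.95 for Syt13 (interval -3.46 to -2.49) and -4.54 for Bmx (interval -7.84 to -2.23). For Wfdc1 it was -3.94 (interval -7.20 to -0.72), and for Fam84a it was at most -3.05. Since the BEC side chose the genes, these differences are a description, and they cover counting error only.

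**Figure D2:**
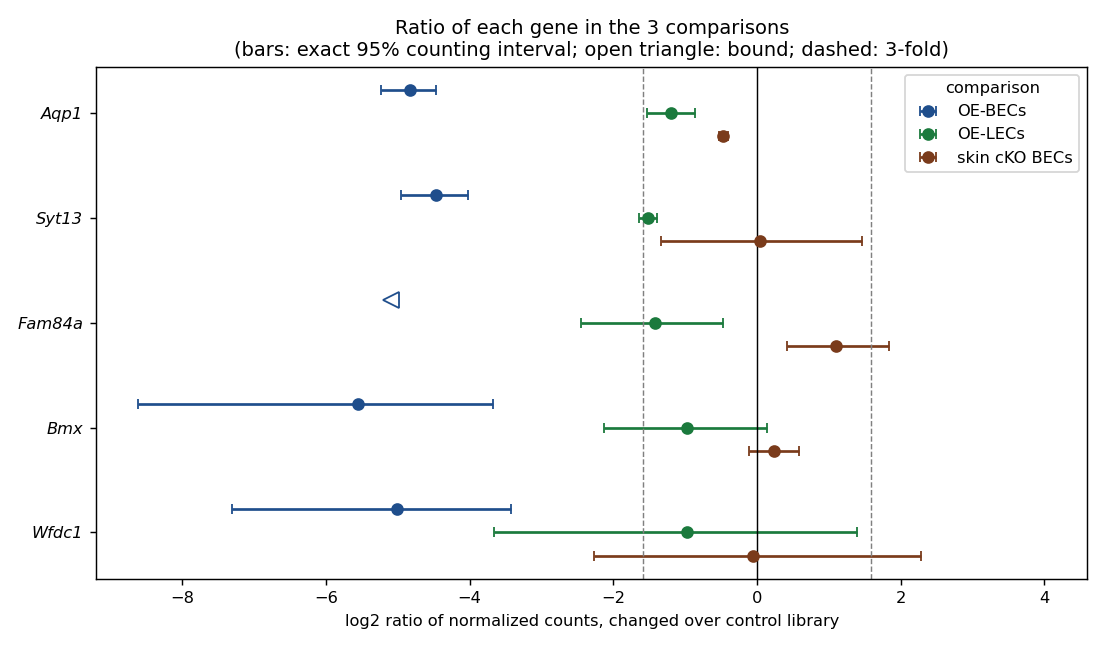
Log2 ratio of normalized counts of each gene in OE-BECs, OE-LECs and the skin library labelled cKO, each over its control, with exact 95% counting intervals and dashed lines at 3-fold. The OE-BEC points lie below -4, the OE-LEC points between -1.52 and -0.97, and the skin points between -0.47 and 1.10.

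The 5 genes just outside the set show how varied the LEC response was among large falls in OE-BECs. Igf2, a fetal growth factor, had 39 and 20 reads in the LEC pair (log2 ratio -1.19). Abca1, a cholesterol exporter, had 1903 and 906 (-1.30), and Fmo2, a monooxygenase, 47 and 22 (-1.33). Cttnbp2, which encodes a cortactin binding protein, had 21 and 3 reads (-3.04). Dkk2, a secreted modulator of Wnt signaling, went the other way with 10 and 77 reads (6.56-fold higher, log2 ratio 2.71, interval 1.76 to 3.83). So 4 of these 5 genes and the 4 measured genes of the set had a log2 ratio below 0 in OE-LECs, and Dkk2 was higher. The interval of Bmx included 0 (-2.13 to 0.14).

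**Figure D3:**
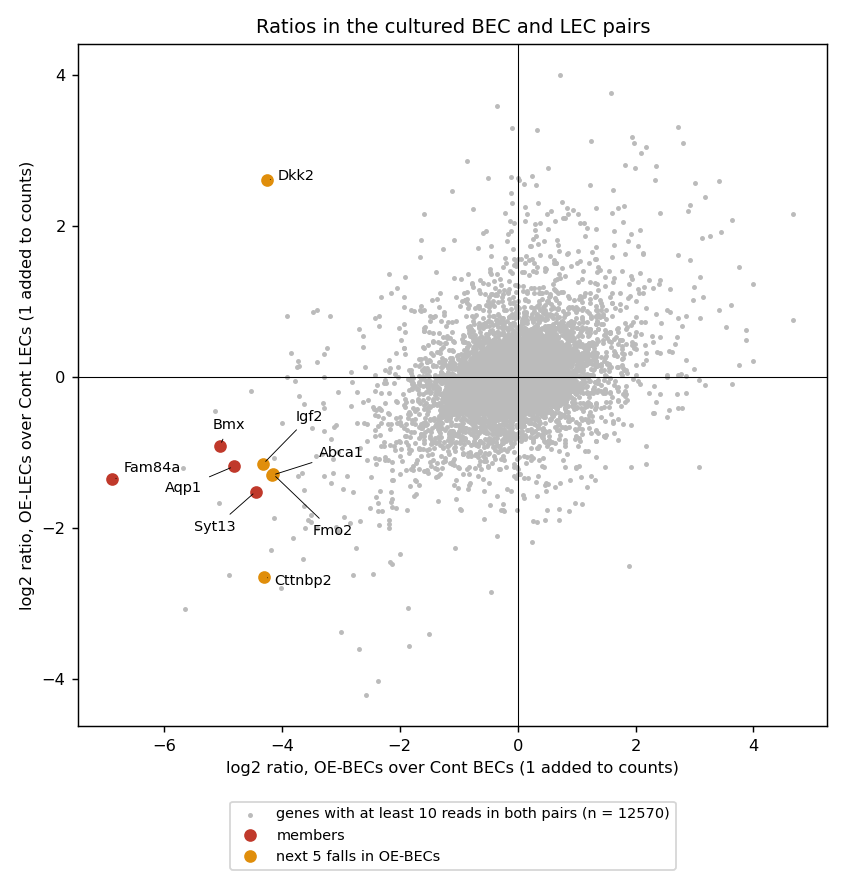
Log2 ratio in OE-LECs against that in OE-BECs, with 1 added to normalized counts, for 12570 genes measured (10 reads or more) in both pairs. Aqp1, Syt13, Fam84a and Bmx (red, Wfdc1 has too few LEC reads) lie at the left edge and between -0.91 and -1.52 in OE-LECs, and Dkk2 lies apart among the next 5 falls (orange).

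In the skin pair the 5 genes did not move as a group. Aqp1 was 1.38-fold lower in the library labelled cKO (3651 and 3433 reads, log2 ratio -0.47, interval -0.53 to -0.40). Fam84a was 2.15-fold higher (24 and 67 reads, log2 ratio 1.10, interval 0.41 to 1.84). Bmx, with 116 and 177 reads, had a log2 ratio of 0.23 and an interval from -0.11 to 0.58. Syt13 (9 and 12 reads) and Wfdc1 (4 and 5 reads) were too sparse for a direction, with log2 ratios of 0.04 (interval -1.33 to 1.46) and -0.06 (interval -2.27 to 2.28). Fam84a was the one gene of the 5 whose interval lay below 0 in OE-LECs and above 0 in skin labelled cKO, while the interval of Aqp1 lay below 0 in both.

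Measured in the skin pair were 4 of the 5 genes. Of these, 1 (Aqp1) had a log2 ratio below 0, beside 49.7% of 15554 genes. One of 4 had an interval below 0, beside 25.4% of genes, and 1 of 4 had an interval above 0, beside 23.1%. By the fold rule 0 of these 4 were lower and 0 higher, beside 2.41% and 5.17% of the 15993 genes that could be called. Wfdc1, with normalized counts of 4.56 and 4.39, was under the minimum of 5 and could not be called. The median of the 4 was 0.13 with 1 added to the counts, beside 0.00 over all genes. The OE-BEC ratio was lower than the skin ratio by -4.37 for Aqp1 (interval -4.77 to -3.99), -4.49 for Syt13 (interval -6.01 to -3.03) and -5.78 for Bmx (interval -8.87 to -3.85), on the log2 scale. The difference was -4.80 for Wfdc1 (interval -7.98 to -2.00) and at most -5.68 for Fam84a.

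Cell type markers also differed between the skin libraries. Blood endothelial markers were lower in the library labelled cKO for 12 of 14 genes (median log2 ratio -0.66, summed level 7199 and 4681 CPM), lymphatic markers for 5 of the 7 measured (2821 and 3275 CPM, with Lyve1 up from 1027 to 1801 CPM), fibroblast markers for 6 of 7 (2836 and 2080 CPM) and pericyte and smooth muscle markers for 6 of 8 (848 and 719 CPM). Macrophage markers were higher for 9 of 10, keratinocyte markers for 6 of 8 (228 and 393 CPM) and Schwann and neural crest markers for 6 of 6 (37.0 and 49.3 CPM). Erythroid markers, which matter for Aqp1 because red cells carry it, summed to 27.9 and 44.7 CPM with 4 of 8 at 0, skeletal muscle markers to 19.2 and 19.8 and neuron markers to 26.5 and 22.1. Except for blood endothelium, the sum of each list was lower in the 4 cultured libraries. The part of these cells in the skin values of the 5 genes was not tested.

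Aquaporins form pores for water, and some of them also for glycerol. Of 12 aquaporin genes, 5 had at least 10 reads in the BEC pair, and 3 of these were lower in OE-BECs. Next to Aqp1, Aqp3 had 11 and 1 reads (log2 ratio -3.08, interval -8.50 to -0.29) and passed the rule, and Aqp11 had 70 and 30 (-0.84, interval -1.51 to -0.20). Aqp7 (9 and 9 reads) and Mip (8 and 12 reads) were not lower, and the median of the 4 other than Aqp1 was -0.24. Aqp1 supplied nearly all aquaporin reads of Cont BECs, and in OE-BECs its 60 reads stood beside 30 of Aqp11. In OE-LECs Aqp11 had 140 and 128 reads (-0.36), and no aquaporin with at least 10 reads passed the rule. In skin labelled cKO, Aqp7, a glycerol channel of fat cells, was lower (89 and 31 reads, log2 ratio -1.90, interval -2.54 to -1.30) and Aqp3, a channel of keratinocytes, higher (1 and 25 reads, 4.27), both past the rule.

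Carbonic anhydrases and bicarbonate transporters work beside aquaporin 1 in the handling of fluid and carbon dioxide. Of 22 such genes, 11 were measured in the BEC pair, 7 were lower and 0 passed the rule, with a median of -0.11. Car5b, at -0.76, lies beside Bmx on chromosome X and is given with its neighbours. In OE-LECs 5 of 11 were lower and 0 passed (median 0.16). In skin labelled cKO 10 of 18 were lower (median -0.06), and Car3 (1036 and 36 reads, log2 ratio -5.22) and Car8 (61 and 455 reads, 2.52) passed the rule in opposite directions.

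Synaptotagmins are proteins of vesicle traffic with paired domains, called C2 domains, which bind calcium in some members. Of 17 genes, 7 were measured in the BEC pair and 5 were lower in OE-BECs. Syt1 (10 and 0 reads) and Syt4 (21 and 5 reads, -1.69) passed the rule with Syt13, and Syt11 had 121 and 60 reads (-0.63, interval -1.10 to -0.17). Syt12 (103 and 77 reads, -0.04), Syt7 (5 and 11) and Syt17 (13 and 16) were not lower beyond counting error, and the median of the other 6 was -0.33. In OE-LECs Syt13 was 1 of 2 lower genes of 6, and Syt17 (18 and 92 reads, 2.12, interval 1.38 to 2.94) and Syt7 (4 and 16 reads) passed the rule upward. In skin the family was low in reads, the most being 142 and 249 for Syt15 (0.43), with 4 of 9 lower. Other proteins that tether membranes through such domains, 8 of 12 measured, were lower in OE-BECs for 4 and higher for 4 (median 0.04). The interval lay below 0 for 2 of them, among them Esyt1 with 4547 and 1770 reads (-0.98, interval -1.06 to -0.90). It lay above 0 for 3, among them Sytl1 with 1 and 9 reads, the only measured tether past the rule. Of these tethers, 2 of 7 were lower in OE-LECs (median 0.28) and 5 of 10 in skin labelled cKO (median 0.21).

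Fam84b, the close relative of Fam84a, had 145 and 68 reads in the BEC pair (-0.71, interval -1.15 to -0.28), 93 and 122 in the LEC pair (0.16, interval -0.24 to 0.57) and 423 and 294 in the skin pair (-0.90, interval -1.12 to -0.68). Thus it was lower in OE-BECs like Fam84a, not measurably changed in OE-LECs, and opposite to Fam84a in skin. Pla2g16, an acyltransferase of the same domain family, had 28 and 23 reads in the BEC pair (0.10). With Fam84a the family counted 2 lower of 3 measured of 6 listed in OE-BECs, 1 of 3 in OE-LECs and 2 of 4 in skin.

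Of the Tec family kinases, Btk, known from B lymphocytes and myeloid cells, had 0 reads in the cultured libraries. Tec, the founding member, had 167 and 95 reads in the BEC pair (-0.43, interval -0.81 to -0.06) and 166 and 241 in the LEC pair (0.31). Txk had 7 and 20 reads in the BEC pair (1.90, interval 0.60 to 3.38), past the rule upward, and 27 and 63 in the LEC pair (0.99). Neither passed the rule downward in OE-BECs, as Bmx did. In skin labelled cKO, Tec had 408 and 747 reads (0.49) and Btk 248 and 544 (0.76), where macrophage markers were also higher. Of 11 genes of PI3 kinase and its lipid phosphatases, which set the input to these kinases, 6 were lower in OE-BECs (median -0.01), 5 in OE-LECs (0.03) and 5 in skin (0.02). Only Pik3r5, a regulatory subunit, passed the rule among them, upward in OE-BECs (19 and 54 reads) and in OE-LECs (40 and 148 reads, 1.66, interval 1.14 to 2.20).

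Of 23 genes of the whey acidic protein family, 3 were measured in the BEC pair. Wfdc2 had 17 and 13 reads and Wfikkn1 36 and 33, neither past the rule, so Wfdc1 was alone in its fall. In LECs Wfdc2 had 163 and 157 reads (-0.28, interval -0.61 to 0.04), and 2 of 2 measured genes had a ratio below 0. In skin 2 of 3 did, with a median of -0.04.

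Bmx belongs to a list of 15 arterial genes, in which the direction in OE-BECs was shared. Of 13 measured, 13 were lower with an interval below 0, at a median of -0.96, or -0.89 for the 12 other than Bmx. An interval below 0 was found for 30% of the 13396 measured genes in this pair, and for 13 of the 14 blood endothelial markers, so the direction was shared with endothelial genes that are not arterial. Past the rule were Bmx, Dll4, a Notch ligand (2717 and 635 reads, -1.71, interval -1.84 to -1.59), the connexins Gja4 (15 and 0 reads) and Gja5 (38 and 6, -2.28) and the Notch target Hey1 (51 and 10, -1.97). Gja4, Gja5 and Hey1 are named because the count is small, and were chosen after their values were seen. In OE-LECs 6 of 11 were lower, the median of -0.12 turned to 0.18 when genes with a mean under 20 normalized counts were left out, and Dll4 had 1719 and 943 reads (-1.10). In skin labelled cKO 11 of 15 were lower, with a median of -0.41, and 0 passed the rule.

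Aqp1 also belongs to a list of 15 endothelial genes known to respond to blood flow. In OE-BECs 9 of 15 were lower (median -0.20), with the flow-induced factor Klf2 at -0.20 and the nitric oxide synthase Nos3 at 0.05, and Aqp1 was the one that passed the rule downward. Edn1, endothelin, passed it upward with 6 and 31 reads. In OE-LECs 4 of 15 were lower (median 0.15). In skin labelled cKO 10 of 15 were lower (median -0.52). There Ptgs2 (418 and 141 reads, -1.95) passed the rule downward, and Hmox1 (971 and 11072 reads, 3.13) and Edn1 (224 and 1410 reads, 2.28) upward.

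**Figure D4:**
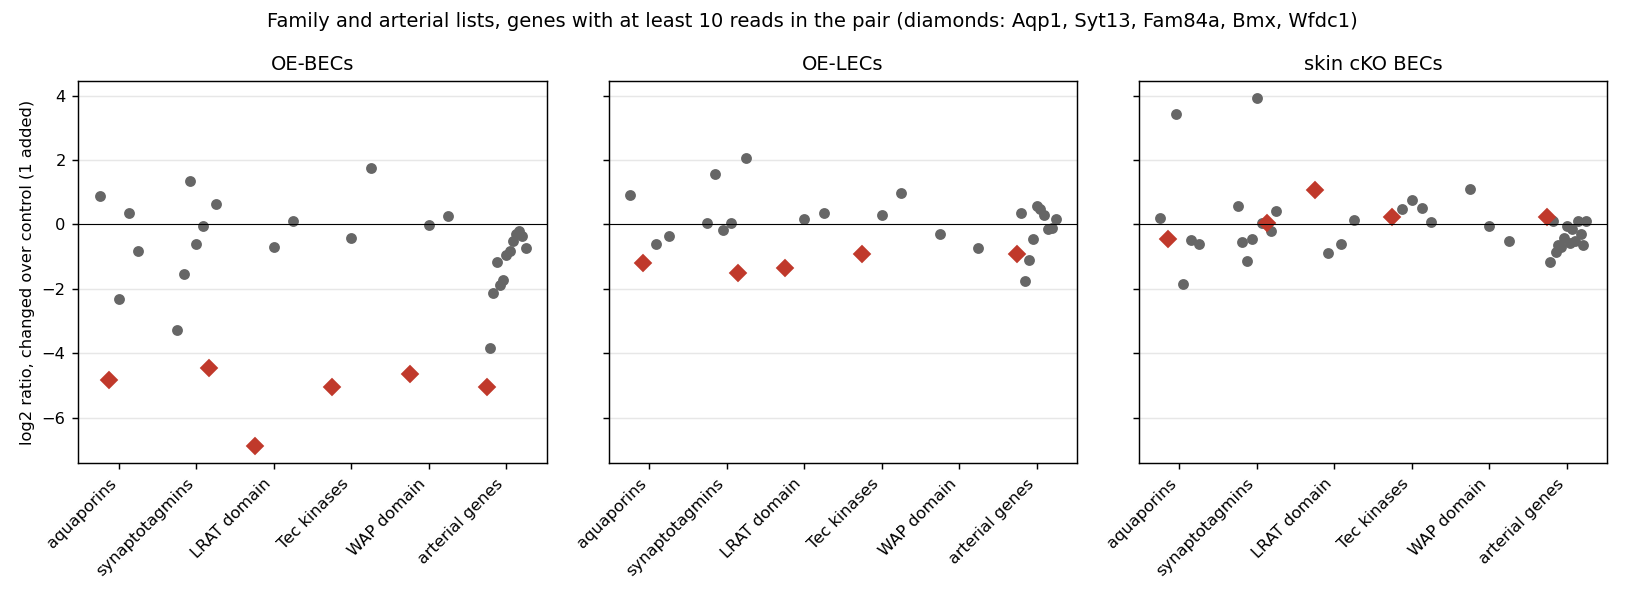
Log2 ratio (1 added to normalized counts) of the measured genes of 5 families and of the arterial list in the 3 pairs, with red diamonds for Aqp1, Syt13, Fam84a, Bmx and Wfdc1. In OE-BECs the diamonds are the lowest of each list and all 13 arterial genes lie below 0, while the diamonds lie between -1.52 and -0.91 in OE-LECs and between -0.47 and 1.08 in skin.

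The regions around the 5 genes were looked at next, through the nearest 2 measured genes on either side. Of these 20 neighbours, 11 had a ratio below 0 in OE-BECs, in a pair where the median over all 13396 measured genes was -0.01. That count therefore does not set the neighbours apart from other genes. None of them (0 of 20) passed the rule in either direction, beside 5.27% of all genes that could be called in the lower direction. The nearest, Prdm11, lies 9.09 kb from Syt13 and had 104 and 54 reads (-0.56, interval -1.06 to -0.07), where Syt13 went from 1187 to 41. On the other side of Syt13, Chst1 had 607 and 732 reads (0.65). Beside Aqp1, Gars had 5282 and 4663 reads (0.20), beside Bmx, Siah1b had 106 and 76 (-0.10), and beside Wfdc1, Taf1c had 216 and 192 (0.21). The largest fall among the 20 was that of Cotl1, near Wfdc1, with 98 and 40 reads (-0.91).

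In a wider window of 500 kb, 30 genes with at least 10 reads were found around the 5 genes, none of them near Fam84a. Their median log2 ratio was -0.19, and 4 of 30 passed the rule downward, beside 5.27% of all genes that could be called. Trp53i11, 272 kb from Syt13, had 3836 and 354 reads (8.31-fold lower, interval 7.45 to 9.29), and Tspan18, 419 kb from it, had 1831 and 264 (5.32-fold lower). Around Wfdc1, 6430548M08Rik at 448 kb had 1278 and 319 reads (3.07-fold lower) and Crispld2 at 326 kb had 13 and 1. These 4 are named for their small number, after their values were seen. The 3 genes near Aqp1 ranged from -0.60 to 0.24 and the 5 near Bmx from -0.76 to 0.74.

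**Figure D5:**
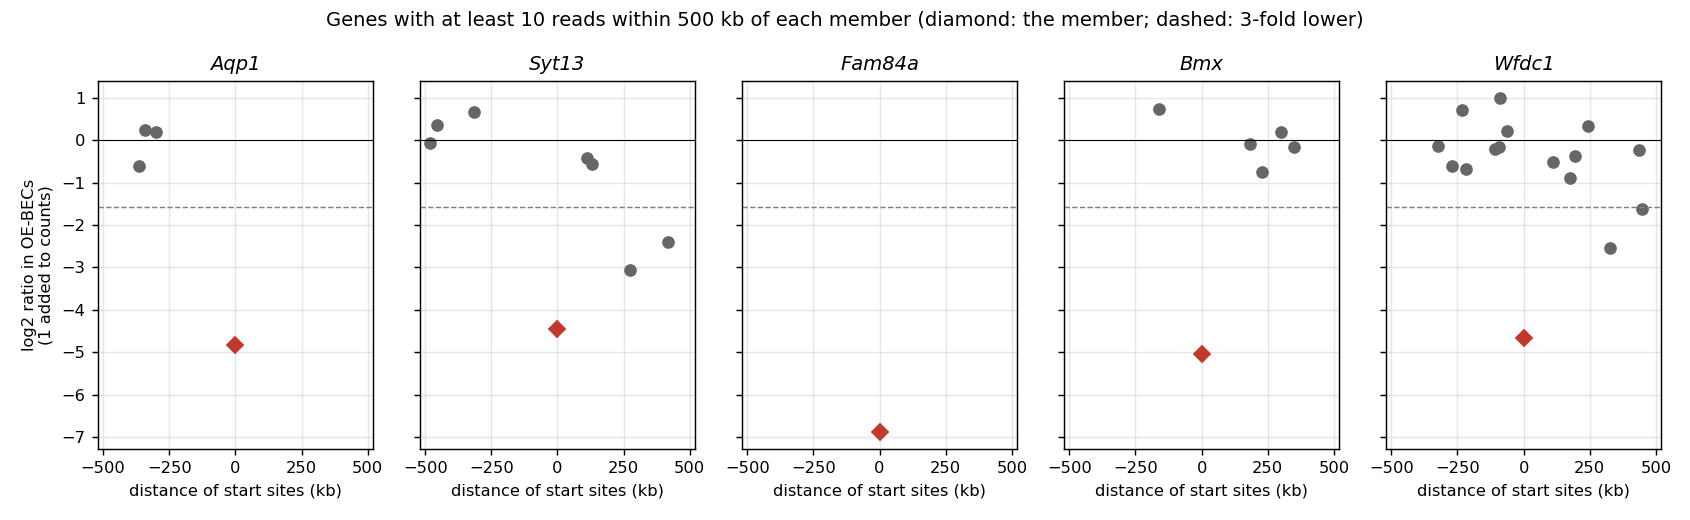
Log2 ratio in OE-BECs (1 added to normalized counts) of 30 measured genes (10 reads or more) within 500 kb of each gene, against the distance between start sites in kb. The red diamond of each gene lies below all its neighbours, and the dashed line marks 3-fold lower, which 4 genes around Syt13 and Wfdc1 passed.

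Across the 6 libraries the 5 genes had unlike profiles. Likeness was measured as the root mean square difference of log2(CPM + 1), centred on each gene's mean. The closest pairs were Fam84a with Bmx (0.826, Pearson r 0.88) and Fam84a with Wfdc1 (0.853, r 0.69), and the farthest was Aqp1 with Syt13 (4.23, r -0.44). Aqp1 and Bmx ran in nearly the same order (r 0.99) over different ranges (1.17). These are descriptions over 6 points that share their libraries.

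Among 15710 genes, those nearest to Aqp1 were Reps2 (0.700), Abca1 (0.702) and Ms4a6b (0.732). Reps2 had 446, 38, 21, 11, 618 and 1299 reads in Cont BECs, OE-BECs, Cont LECs, OE-LECs, skin Cont and skin labelled cKO, high in skin and control BECs like Aqp1. Those nearest to Syt13 were Ifne (0.732), Plet1 (0.767) and Robo3 (0.944). Ifne had 317, 67, 954, 558, 0 and 0 reads in the same order of libraries, so it too was a gene of the cultured cells.

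Fam84a had closer neighbours in profile, Tgfb3 (0.249), Ccdc3 (0.364) and Acer2 (0.366), as did Bmx with Ldlrad4 (0.342), Prex1 (0.382) and Rnf125 (0.388). For Wfdc1 they were Osbp2 (0.188), Nepn (0.279) and C1ql4 (0.294). Osbp2 had 191, 11, 21, 8, 13 and 16 reads in the same order, with Cont BECs far above the rest. A gene of low level has a small range on this scale, so that small differences are not comparable between Aqp1 and Wfdc1.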

How the data were processed

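RNA-seq counts of 6 libraries, 1 per condition, were used. The authors used ScriptSeq v2 kits, skewer (version 0.2.2) for adapters, STAR (version 2.7.9a) for alignment to mm10 and VERSE (version 0.1.5, option -S) for counting. The deposited values are raw counts for 24421 genes, 4473 of them without a read. The meaning of that option for strand, and the annotation used, are not given in the sources used here. Positions came from GENCODE M21 by symbol (95.7% of genes), promoters from RefSeq.

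Normalization was by median of ratios (DESeq2 1.42.0, R 4.3.3) within each pair, with size factors of 1.14 and 0.876 in the BEC pair, 0.923 and 1.08 for the LECs, and 0.877 and 1.14 for skin. No expression test was run, since no condition has a replicate. Intervals and counts were computed in Python 3.11.15 (numpy 2.4.6, scipy 1.17.1, pandas 2.3.3), checked on simulated data. A count of 0 was set at a floor of 3 reads. List genes were counted as measured with at least 10 reads in the pair, and list medians had 1 added to normalized counts. Total counts per library were from 8863349 to 31032461.

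The 5 genes, the family and marker lists and the rules were chosen with earlier results of these data known. Genes are named by rule if they are one of the 5, a measured member of their family lists, a genomic neighbour, 1 of the 3 nearest in profile to each, 1 of the next 5 in order of fall, or past the fold rule in another list with at least 100 normalized counts. Dot1l, marker genes, Esyt1, Sytl1, Syt15, Btk, Klf2, Nos3 and the genes said above to be named after their values were seen stand outside this rule. Alternatives were size factors from all 6 libraries, TMM factors (edgeR 4.0.16), total counts with and without Rn45s and small RNA genes (1301), a pseudocount of 1, a minimum of 20, a pseudocount of 0.1 or Pearson correlation for likeness, and list genes with a mean of at least 20.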

Additional observations from a re-analysis of the deposited data

Results flagged for a closer look

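Of 67 genes named by the rule, 6 had opposite directions in OE-BECs and OE-LECs with both intervals on their own side of 0. The share of all genes with such opposite directions was not counted, so the 6 cannot be called more than usual. An interval below 0 was itself common, with 30% of measured genes in OE-BECs and 21.4% in OE-LECs. The difference between the lines was not tested, since each has 1 library per condition. Dkk2 was lower in OE-BECs (295 and 11 reads, log2 ratio -4.36) and higher in OE-LECs (10 and 77 reads, 2.71), and alone passed the fold rule in both. Tec, the kinase related to Bmx, had -0.43 and 0.31. Car5b and Piga, both neighbours of Bmx, had -0.76 and 0.61, and 0.74 and -0.22. Tldc1, a neighbour of Wfdc1, had -0.51 and 0.40, and Lsm5, a neighbour of Aqp1, 0.33 and -0.19.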

How the results depend on the processing

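No paired analysis was possible because each condition has 1 library, and for the same reason no replicate could be left out. The ratios of the 5 genes kept their direction under every scaling and the pseudocount. In OE-BECs Aqp1 ranged from -4.87 to -4.79 and Syt13 from -4.51 to -4.43, and in OE-LECs Aqp1 ranged from -1.21 to -1.18 and Syt13 from -1.54 to -1.52. The genes with few reads moved with the pseudocount, in OE-BECs Fam84a from -6.88 to -5.05 and Bmx from -5.60 to -5.05. No scaling shifted the median of all genes by more than 0.06. The number of genes past the fold rule depended on its minimum. With a minimum of 20 in place of 3 or 5 it was 261 in place of 779 lower in OE-BECs, 51 in place of 290 lower in OE-LECs, and in skin 153 in place of 386 lower and 372 in place of 827 higher. With size factors from all 6 libraries it was 168 lower in OE-LECs, where the factors of both libraries rise and the same minimum asks for more reads. In skin these factors gave 556 lower and 1063 higher. A pseudocount of 1 gave 634 lower in OE-BECs, 199 lower in OE-LECs, and 313 lower and 684 higher in skin. List medians changed sign with a mean of at least 20 for arterial genes in OE-LECs (-0.12 to 0.18), synaptotagmins in skin (0.03 to -0.078) and the other membrane tethers in skin (0.21 to -0.027). The genes nearest in profile depended on the measure: of 15, 1 was also chosen by Pearson correlation and 2 with a pseudocount of 0.1. Fam84a, Bmx and Wfdc1 rest on 0 to 3 reads in OE-BECs, so their folds are known only within wide intervals or as a bound.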
